A study of Mus musculus with 2 samples.

Results

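Mitochondrial antioxidant defence was followed through 10 genes in the adrenal gland of newborn mice: Nnt, Prdx3, Prdx5, Txn2, Txnrd2, Sod1, Sod2, Gpx1, Gpx4 and Gsr. They were chosen by symbol, all 10 were found in both libraries, and they are 10 of 18032 known mouse genes with at least 1 read. The reads of a gene were summed over all its transcript models. Total RNA of adrenal tissue, with no treatment named in the labels, was sequenced as long reads; the donors were B6CASTF1/J males aged 4 days. B6CASTF1/J mice are first-generation offspring of the inbred strains C57BL/6J and CAST/EiJ, so each cell carries 1 chromosome set of each parent. There is 1 group with 2 libraries, labelled biological replicates 1 and 2. The labels do not settle whether they are 2 animals, because male 04 appears in 1 tissue description, male 03 in the other and in those of both libraries, with a single donor identifier throughout. Differences between the libraries therefore measure only the spread between these libraries, which may be technical.

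Mitochondria leak superoxide from the respiratory chain, and in the adrenal cortex the mitochondrial steroid hydroxylases add to it. Superoxide dismutases turn superoxide into hydrogen peroxide, and peroxiredoxins and glutathione peroxidases then reduce the peroxide with electrons from thioredoxin or glutathione. Thioredoxin reductase and glutathione reductase recharge these carriers with NADPH. Nnt, nicotinamide nucleotide transhydrogenase, is an enzyme of the inner mitochondrial membrane that makes NADPH from NADH with the proton gradient, and loss of human NNT causes glucocorticoid deficiency. C57BL/6J mice carry a deletion of several Nnt exons that most other inbred strains do not share.

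The genome behind the deposited models, mm10, is that of C57BL/6J and so lacks the deleted exons. The leading annotated transcript, Nnt-202, has 17 exons and 835 codons, and its exon 6 (chr13:119386579-119386667, minus strand) is followed by its exon 7 (chr13:119381676-119381863, minus strand). The deletion is known to lie between these 2 exons, which was not checked here. The join is printed from the GENCODE transcript (mm10, 5′ to 3′) because the Nnt results turn on it: the last 30 bases of exon 6 are in lower case and the first 30 bases of exon 7 in capitals.
Nnt-202, exon 6 to exon 7: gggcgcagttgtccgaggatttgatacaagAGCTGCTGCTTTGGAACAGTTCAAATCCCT

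Txnrd2, the mitochondrial thioredoxin reductase, has 16 annotated transcripts, and 2 of its full-length ones differ between exon 8 (chr16:18443204-18443274, plus strand) and the shared start at position 18454489. Txnrd2-203 fills the gap with an exon of 20 bases (chr16:18453721-18453740). Txnrd2-212 fills it with an exon of 7 bases (chr16:18451971-18451977) and starts the next exon 13 bases earlier, which gives 20 bases as well. The capitals mark these 20 bases, of which 9 are the same in both transcripts position by position. Each is shown with 20 flanking bases on either side because the leading Txnrd2 model of both libraries held neither form.
Txnrd2-203: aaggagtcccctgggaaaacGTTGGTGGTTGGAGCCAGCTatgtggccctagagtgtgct
Txnrd2-212: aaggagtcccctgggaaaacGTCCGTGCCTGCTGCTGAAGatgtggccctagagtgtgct

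Gpx4, a glutathione peroxidase that reduces lipid peroxides in membranes, was the most abundant of the 10 genes by counted reads, and Nnt the least abundant. Levels are given in CPM, reads scaled to the same total of mouse reads in each library. Each long read is 1 sequenced molecule, so levels are not divided by transcript length. Without counted molecular identifiers, copies of the same cDNA could not be told from separate ones. How far transcript length changes the chance of a molecule to be read was not tested. Gpx4 had 484 reads in replicate 1 and 535 in replicate 2, or 703 and 660 CPM, which placed it at rank 158 of all known genes by mean CPM. Txn2, the mitochondrial thioredoxin, had 538 and 443 CPM. Gpx1, a glutathione peroxidase of cytosol and mitochondria, had 461 and 495 CPM. Prdx3, the peroxiredoxin confined to mitochondria, had 481 and 357 CPM. The values of Txn2, Gpx1 and Prdx3 overlapped between the libraries, so their order is within the spread, and Gpx4 lay above all of them in both libraries.

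Sod2, the manganese superoxide dismutase of the mitochondrial matrix, had 292 and 295 CPM, from 201 and 239 reads. Prdx5, a peroxiredoxin of mitochondria, peroxisomes and cytosol, had 169 and 231 CPM. Txnrd2 followed with 158 and 155 CPM. Sod1, the copper and zinc enzyme of cytosol and intermembrane space, had 135 and 147 CPM. Its level was below that of Sod2 in both libraries. Gsr, glutathione reductase, had 121 and 122 CPM. Nnt had 23 and 38 reads, or 33.4 and 46.9 CPM (40.1 ± 9.52, SD, n = 2), at rank 4634. Whether reads that carry the exons absent from mm10 are missing from the Nnt count was not tested. From Gpx4 to Nnt, Txn2, Gpx1 and Prdx3 were the only neighbours whose library values overlapped.

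Summed over the 10 genes, 2127 reads of replicate 1 and 2392 of replicate 2 gave 3090 and 2951 CPM (3021 ± 98.8, SD, n = 2). That is 0.309% and 0.295% of the mouse reads. The 4 peroxidases Prdx3, Prdx5, Gpx1 and Gpx4 took 1813 and 1742 CPM of it, and the carrier and reductase genes Txn2, Txnrd2 and Gsr 817 and 720 CPM. The 2 dismutases took 427 and 442 CPM.

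**Figure D1:**
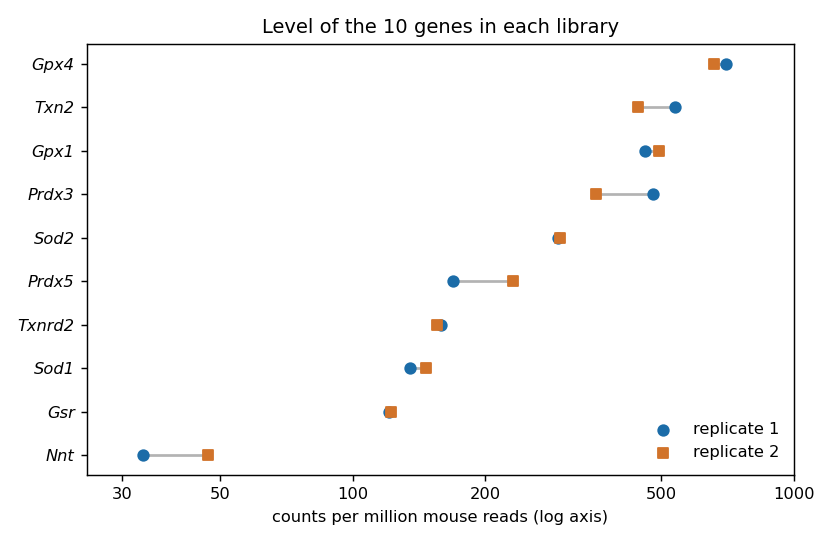
Level of each gene in CPM (log axis), with 1 point per library (circle, replicate 1; square, replicate 2) and a grey line joining the pair. Gpx4 is highest at 703 and 660, and Nnt lowest at 33.4 and 46.9.

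None of the 10 genes passed the call between the libraries, against 3.23% of the 8277 genes tested. The call asked for an adjusted p under 0.05 (Fisher's exact test, two-sided, with Benjamini-Hochberg adjustment over every gene that reached 20 reads in the libraries combined) and a log2 ratio of CPM, with 0.5 CPM added, of at least 1 in size. By unadjusted p under 0.05, 3 of the 10 differed, as did 1586 of the 8277 genes. On the adjusted p alone 1 of the 10 passed, against 7.93% of all genes tested. That gene was Prdx3, with 331 and 289 reads and a log2 ratio of replicate 2 over replicate 1 of -0.43 (counting SE 0.12, Fisher's exact test, adjusted p = 0.00471). With DESeq2's size factors in place of the library totals its log2 ratio was -0.32 and the adjusted p 0.0662.

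Prdx5 had the opposite sign, a log2 ratio of 0.45 (counting SE 0.17, Fisher's exact test, adjusted p = 0.0819). It passed the adjusted threshold with TMM scaling and with DESeq2's size factors, with adjusted p values down to 0.0183. Nnt had the largest ratio, 0.48, on the fewest reads (counting SE 0.38, Fisher's exact test, adjusted p = 0.602). The log2 ratio of Txn2 was -0.28 and those of the other 6 genes lay between -0.09 and 0.12. The median over the 10 genes was 0.02, beside -0.10 over all genes tested. DESeq2's size factors moved the median of all genes to 0.0051 and that of the 10 genes to 0.12, with 8 of them above 0 in place of 6. With TMM scaling the median of the 10 was 0.08, with 7 above 0. Of the 267 genes called in all, 70.0% were higher in replicate 2, and 82.4% of 256 with DESeq2's size factors.

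The libraries also differed in RNA of other tissue. The 10 liver markers, albumin (Alb) among them, had sums of 506 CPM in the first library and 20004 CPM in the second, and all 10 were called higher in replicate 2. The 5 red blood cell markers summed to 3670 and 7480 CPM, and 3 of them were called higher in replicate 2. The 6 adrenal cortex markers summed to 45805 and 31233 CPM and the 5 chromaffin markers to 12468 and 9258 CPM. All markers of both adrenal lists were detected in each library. None of them reached the fold of the call, but by the adjusted p alone 5 of the 6 cortex and 4 of the 5 chromaffin markers were lower in replicate 2. Brown fat (1790 and 2333 CPM) and muscle markers (1206 and 1977 CPM) were present in both with none called, while 3 of 5 and 2 of 4 tested were higher in replicate 2 by the adjusted p alone. Macrophage markers summed to 298 and 262 CPM, and kidney markers to 36.3 and 6.17 CPM. Antioxidant genes are expressed in liver too; the part of these other tissues in the ratios above was not tested, and in a whole tissue fewer cells of a type and less RNA per cell cannot be told apart.

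Among 51 further redox genes, 49 had reads and 45 were tested. Only Mthfd2 was called, 1 of 45 beside the 3.23% of all genes tested. This mitochondrial folate enzyme had 47.9 and 19.7 CPM and a log2 ratio of -1.26 (Fisher's exact test, adjusted p = 0.0473). With the adjusted p alone 5 of the 45 passed, beside 7.93% of all genes tested: 2 were higher in replicate 2, Prdx1 (1091 and 1276 CPM) and Prdx4 (66.8 and 130 CPM), and 3 lower, Prdx6 (769 and 590 CPM), Gpx3 (128 and 69.1 CPM) and Mthfd2. The median log2 ratio of the 45 was -0.04. Slc7a11, the cystine carrier, and Aldh1l2, a mitochondrial folate enzyme, had no reads, which allows a level of up to 4.36 CPM in the first library and 3.70 CPM in the second.

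The cytosolic peroxiredoxins stood above their mitochondrial relatives. Prdx2 had 1257 and 1198 CPM, and Prdx1 and Prdx6 were likewise above Prdx3 and Prdx5 in both libraries. Glrx5, a mitochondrial glutaredoxin of iron-sulfur cluster assembly, had 673 and 701 CPM, Glrx3 211 and 179 CPM, and the cytosolic thioredoxin Txn1 161 and 196 CPM. Txn1 was thus below Txn2 in both libraries. Catalase (Cat), which breaks down peroxide in peroxisomes, had 155 and 107 CPM, Ccs, the copper chaperone of Sod1, 95.9 and 99.9 CPM, and Sod3, the extracellular dismutase, 58.1 and 67.8 CPM. Gpx8 had 100 and 83.9 CPM and Gpx7 49.4 and 60.4 CPM, both of them peroxidases of the endoplasmic reticulum.

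Of 7 other genes listed for the supply of mitochondrial NADPH, 3 exceeded the counted level of Nnt in both libraries. Idh2, the NADP-dependent isocitrate dehydrogenase of the matrix, had 331 and 274 CPM. Glud1, glutamate dehydrogenase, had 122 and 137 CPM, and Nadk2, the mitochondrial NAD kinase, 116 and 107 CPM. Mthfd2 lay above Nnt in replicate 1 and below it in replicate 2, Mthfd2l (24.7 and 29.6 CPM) and Me3 (10.2 and 13.6 CPM) lay below it in both, and Aldh1l2 had no reads. Among the glutathione genes, Gclc and Gclm, which make the first intermediate, had 53.8 and 78.9 CPM and 49.4 and 41.9 CPM. Gss, the synthetase, had 59.6 and 58.0 CPM, and the transferase Mgst1 had 927 and 862 CPM. Gstp1 had 241 and 244 CPM and Mgst3 196 and 211 CPM. The regulators Nfe2l2 (79.9 and 65.4 CPM), Keap1 (46.5 and 43.2 CPM) and Sesn1 (33.4 and 30.8 CPM) were detected. In a mixed list of repair genes and mitochondrial carriers, Park7 had 362 and 453 CPM. Slc25a39, the mitochondrial glutathione carrier, had 179 and 149 CPM, and Ucp2 106 and 118 CPM.

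Most of the 10 genes were read almost wholly as annotated transcripts, while Nnt, Txnrd2 and Sod1 were not. The deposited files sort each model into complete matches to an annotated transcript, parts of one, new combinations of annotated splice sites, models with a new splice site, and genomic models. Complete matches made up 98.1% and 96.5% of the Gpx1 reads, 96.9% and 94.6% of Gpx4, 97.0% and 95.5% of Prdx3, 97.4% and 94.1% of Prdx5, and 94.3% and 93.6% of Txn2. For Sod2 the shares were 91.5% and 93.3%, and for Gsr 90.4% and 93.9%. The median gene with at least 20 reads in a library had 82.7% and 77.3%. Nnt had 43.5% (95% Wilson interval 25.6 to 63.2) and 44.7% (30.1 to 60.3), Sod1 34.4% and 40.3%, and Txnrd2 7.34% and 4.76%.

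These 3 genes departed in different ways. Txnrd2 reads lay in models with a new splice site, 72.5% and 63.5%, beside a median of 2.63% and 2.68% over genes. Nnt had 30.4% and 23.7% in that class. Sod1 reads lay in parts of an annotated transcript, 63.4% and 58.0%, beside a median of 4.76% and 6.35%.

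**Figure D2:**
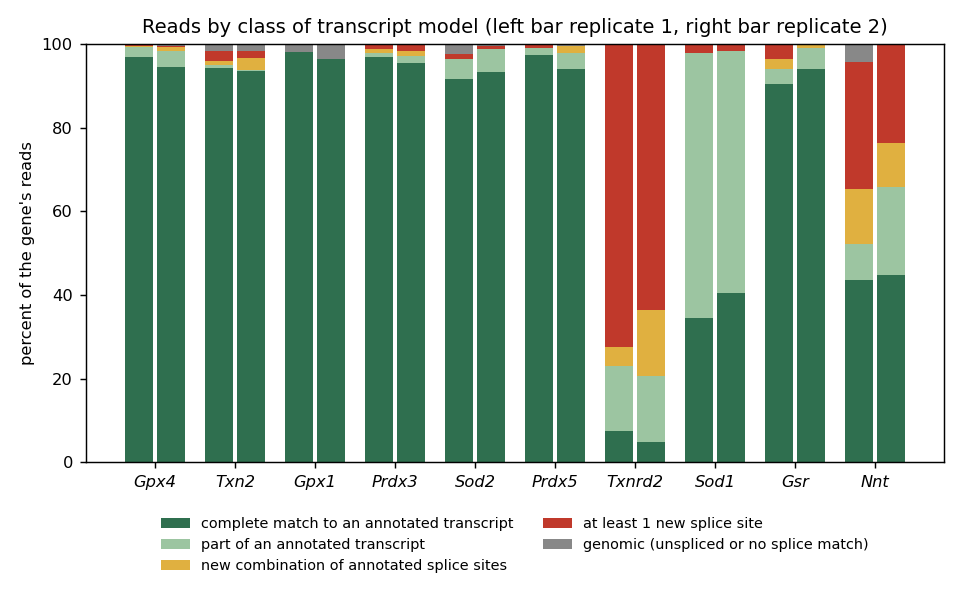
Percent of each gene's reads by class of transcript model, stacked to 100, with replicate 1 as the left bar and replicate 2 as the right bar of each pair. Txnrd2 stands out by models with a new splice site (72.5 and 63.5 percent), Sod1 by parts of annotated transcripts (63.4 and 58.0 percent).

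The 61 Nnt reads fell into 30 models, 23 of them seen once. The annotation has 2 gene entries with the name Nnt over nearly the same stretch of chromosome 13 (119335448 to 119408997 for the larger), and their reads, 11 and 18 for one and 12 and 20 for the other, were summed. Nnt-202 had 10 reads in replicate 1 and 13 in replicate 2. Nnt-205, an annotated retained-intron form of 4 exons, had 0 and 3 reads, and Nnt-201 0 and 1. Only 4 of the models had reads in both libraries. Both end exons, counting first exons upstream, were held by 20 of 23 and 25 of 38 reads.

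Reads that crossed the site of the C57BL/6J deletion joined exon 6 to exon 7 directly. In replicate 1 this held for 19 of 20 such reads (95.0%, 95% Wilson interval 76.4 to 99.1) and in replicate 2 for 27 of 27 (100%, 87.5 to 100). The remaining read of replicate 1 joined exon 6 to a site 2 bases inside exon 7. One read of replicate 1 ended at exon 6, and 0 of 61 reads began at exon 7, which allows a share of up to 4.92%. The exon 6 to exon 7 join was held in 97.9% over both libraries, and the other 15 joins of the transcript in 73.1% to 100%. Since mm10 has no bases for the deleted exons, no model on it can show them; whether some of these reads came from the CAST/EiJ copy was not tested, and the counts cannot be split by parent.

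Variation in Nnt lay at its 5′ end and around exon 8. Of the 47 reads across the intron after exon 7, 36 joined exon 7 to exon 8 at the annotated site, 18 of 20 in replicate 1 and 18 of 27 in replicate 2. Another 6 reads (1 and 5) left exon 8 out. Of these, 2 reads of replicate 2 left out exon 9 as well, and 1 of the 2 was the read of the annotated Nnt-201, which lacks both exons. A further 5 reads (1 and 4) entered exon 8 at a new site that leaves out its first 20 bases. The most abundant new models had 1 and 2 reads each: one of 16 exons lacked exon 2, and one of 17 exons had a new splice site. Exons 3 and 4 were left out together by 2 reads in each library. In all, 8 reads of 7 models (6 in replicate 1 and 2 in replicate 2) began at an exon upstream of the annotated first exon. In 5 of the 8 the first exon began 482 or 521 bases upstream of the annotated 5′ end, and in 3 it began 19925 bases upstream.

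**Figure D3:**
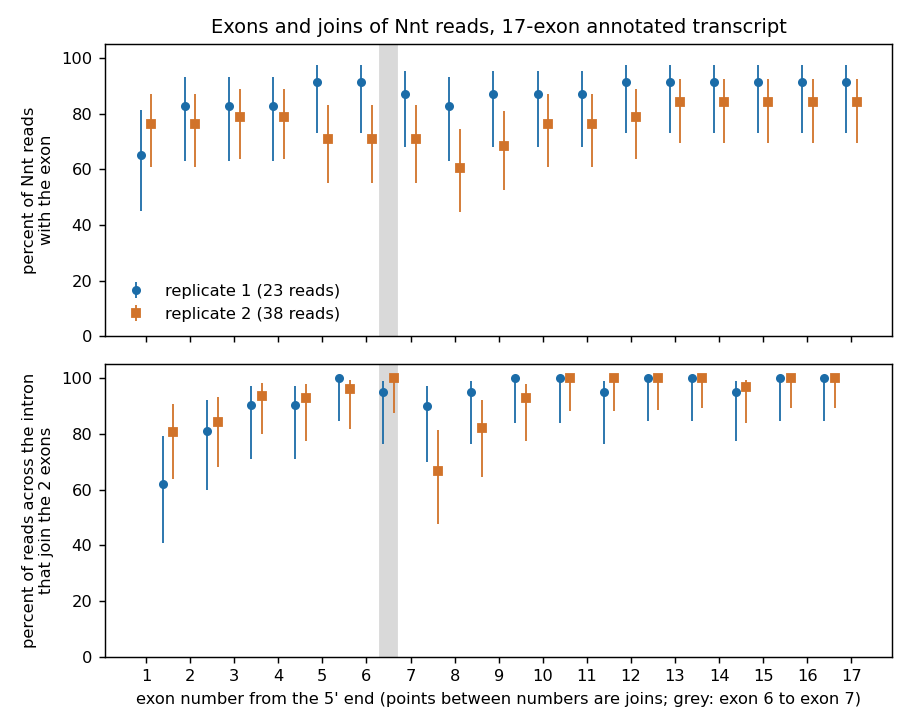
Upper panel: percent of the Nnt reads of each library that overlap each of the 17 exons of Nnt-202. Lower panel: percent of the reads extending across each intron that join its 2 neighbouring exons; bars are 95% Wilson intervals. The grey band marks the join of exon 6 to exon 7, at 95.0 and 100 percent, and the lowest joins are exon 1 to 2 in replicate 1 (61.9) and exon 7 to 8 in replicate 2 (66.7).

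The leading model of Txnrd2 was a new one in both libraries, with 76 reads of 109 in replicate 1 and 73 of 126 in replicate 2. No read matched any full-length annotated transcript, and among annotated forms only the short Txnrd2-206, of 4 exons, had reads, 8 and 6. The new model has 17 exons. It extends exon 8 by 12 bases to position 18443286 and starts the following exon at position 18454476, 13 bases before the shared start, so it holds 25 bases where Txnrd2-203 and Txnrd2-212 hold the 20 bases printed in capitals above. The excess of 5 bases is not a whole number of codons.

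All 187 reads that ran from exon 8 past exon 10 were compared. The join with 25 bases was in 78 of 85 reads in replicate 1 (91.8%, 95% Wilson interval 84.0 to 96.0) and in 85 of 102 in replicate 2 (83.3%, 74.9 to 89.3). A form with 27 bases had 1 and 6 reads, and 1 with 13 bases had 0 and 5. Another 6 reads, 3 in each library, held the 20-base exon together with the intron after it. None had 20 bases in either annotated arrangement, which allows a share of up to 1.60%. The 7-base exon was held by 0 of 85 and 0 of 102 reads. The files give coordinates of models and not the bases of reads, so whether the reads carry the bases of either short exon was not tested.

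Annotated exons of up to 20 bases fell mostly into those held by few reads and those held by nearly all. An exon counted as held when a model overlapped any part of it, also within a longer exon or an unspliced stretch. Exons of every protein-coding transcript entered, whatever the number of reads of that transcript. This measurement was added after the Txnrd2 values were seen. Over internal exons of protein-coding transcripts with at least 20 reads across them, the median share of reads holding the exon was 0.845% and 0.806% for exons of 1 to 10 bases, 4.55% and 7.28% for 11 to 20 bases, and 99.0% and 99.4% for 21 to 30 bases. In the class of 11 to 20 bases, 56.6% of 99 exons and 56.7% of 104 were held by under 10% of reads, and 35.4% and 34.6% by at least 90%. In the class of 1 to 10 bases 62.5% and 66.0% were held by under 10% of reads, and 22.5% and 19.1% by at least 90%. Among the members, the 20-base exon of Txnrd2 was overlapped by 4.71% and 2.94% of reads. In each library 0 reads held it as an exon with its annotated ends. The 25-base exon of Gpx4 was held by 482 of 482 and 531 of 531 reads and the 27-base exon of Gsr by 80 of 80 and 95 of 95.

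**Figure D4:**
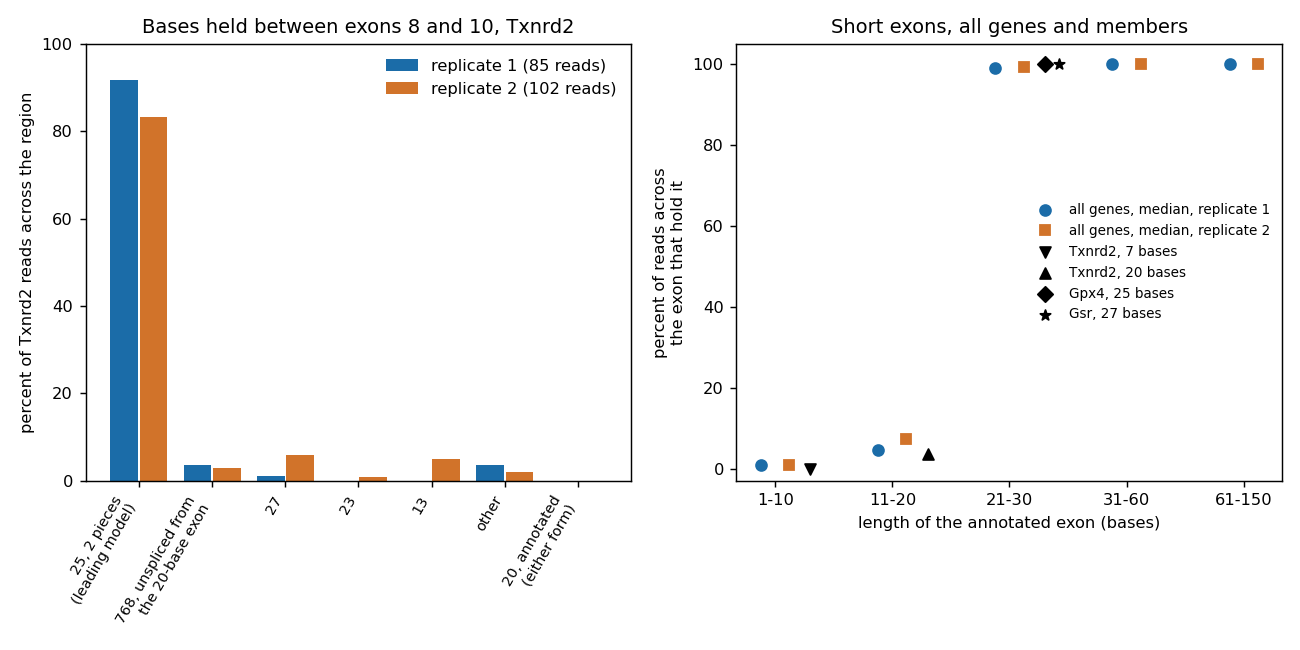
Left: percent of the Txnrd2 reads that run from exon 8 past exon 10, by the number of bases held between exon 8 and position 18454489, for each library; 91.8 and 83.3 percent hold 25 bases and none holds the annotated 20. Right: percent of reads across an annotated exon that hold it, by exon length, as medians over all genes for each library and as values over both libraries for 4 exons of the members. Any overlap with the exon counts as holding it.

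Usage of the leading model did not pass the call between libraries for any of the 8 members tested, against 0.41% of 2440 genes. The test was a two-sided Fisher's exact test over the reads of complete matches, new combinations and new splice sites, for genes with at least 50 in each library, with a minimum difference of 10 percentage points. Txnrd2 had the largest difference, 82.6% (95% Wilson interval 73.6 to 89.0) and 68.9% (59.5 to 76.9), with an unadjusted p of 0.0317 and an adjusted p of 0.629 by Fisher's exact test. Nnt and Sod1 had too few such reads. A new model led in 60 of the 2440 genes, 2.46%, and in Txnrd2 alone among the members.

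Sod1 reads were mostly short of the 5′ end. Sod1-201 is the shortest leading transcript of the 10, 641 bases in 5 exons, and had 28 and 39 reads. All 212 Sod1 reads reached the last exon, but only 34 of 93 (36.6%, 95% Wilson interval 27.5 to 46.7) and 49 of 119 (41.2%, 32.7 to 50.2) held the first exon or one upstream as well. In replicate 1, 33 reads began in exon 4 and 18 in exon 5, and in replicate 2 34 and 27. Sod1-202, a retained-intron form, had 4 and 9 reads. In contrast both end exons were held by 94.5% and 94.6% of the Sod2 reads. The leading Sod2 transcript is the longest of the 10 with 5861 bases, of which its last exon takes 5109. An end exon counted as held when a model overlapped any part of it. The Sod2 shares therefore do not show that the whole transcript was read. The shares of Prdx3 were 99.1% and 97.9%.

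**Figure D5:**
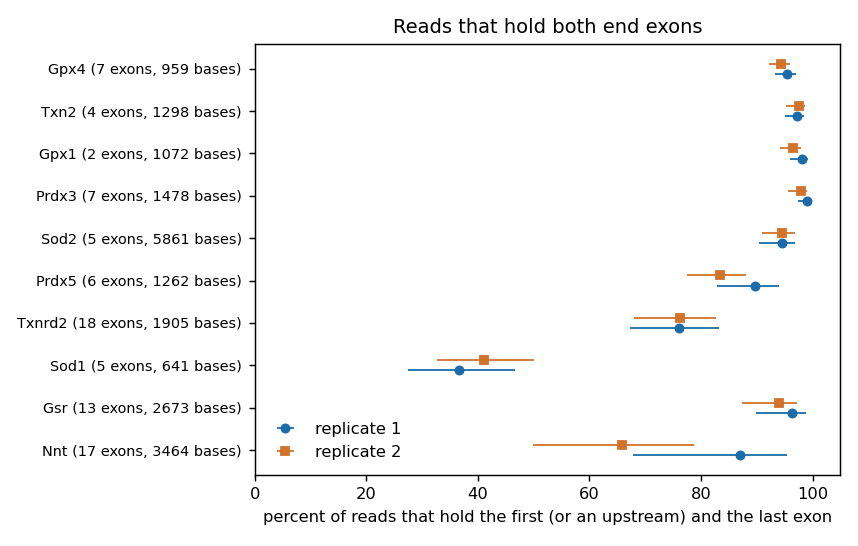
Percent of each gene's reads that hold the first exon of the leading annotated transcript (or an exon upstream) and its last exon, by library, with 95% Wilson intervals; exon number and transcript length stand beside each name. Sod1 is lowest at 36.6 and 41.2 percent, and its transcript is the shortest. An exon counts as held when a model overlaps any part of it.

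Less abundant annotated forms of the other genes were as follows. Gpx4 has separate first exons for its nuclear form, Gpx4-201, and the form that yields the mitochondrial and cytosolic enzymes, Gpx4-202: the former had 1 read in each library and the latter 458 and 498. Gpx4-207, a form of 6 exons, had 8 and 5. Prdx5-201 had 103 and 152 reads, and Prdx5-203, which lacks its first exon and begins in an extended exon 2, had 10 and 23. Prdx5-203 thus took 10.9% of the Prdx5 reads over both libraries. Txn2-201 had 330 and 319 reads. Txn2-204, which keeps the first intron and has the same 166 codons, had 18 and 17. Gpx1-201 had 306 and 380 reads and Gpx1-202, annotated without a selenocysteine codon, 5 and 7. Prdx3-201, Sod2-201 and Gsr-201 had 321 and 276, 183 and 222, and 75 and 93 reads.

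Gpx1, Gpx4 and Txnrd2 are selenoproteins, in which a UGA codon is read as selenocysteine in the active site. The annotated codon lies at chr9:108339451-108339453 for Gpx1, chr10:80054737-80054739 for Gpx4 and chr16:18477772-18477774 for Txnrd2, all on the plus strand. The stretches around it (GENCODE transcripts, mm10, 5′ to 3′, TGA in capitals) show where it stands: inside the coding sequence of both peroxidases, and with a single codon between it and the stop codon in Txnrd2.
Gpx1-201: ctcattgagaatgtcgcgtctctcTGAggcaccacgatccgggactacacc
Gpx4-202: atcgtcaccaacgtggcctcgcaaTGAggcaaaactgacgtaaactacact
Txnrd2-203: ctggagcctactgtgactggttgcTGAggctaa

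Most reads of the 3 selenoprotein genes held the exon with this codon. The share was 98.1% and 96.5% for Gpx1 and 98.1% and 95.7% for Gpx4. For Txnrd2 it was 92.7% (95% Wilson interval 86.2 to 96.2) and 93.7% (88.0 to 96.7), and the reads without it included the 8 and 6 of the short Txnrd2-206.

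Promoter windows of 250 bases before to 50 after a transcription start (RefSeq, GRCm38.p6) were given for 8 of the 10 genes, in 11 windows. Nnt and Gsr had none. Gpx4 alone had more than 1 window. Its windows at chr10:80053315-80053614 and chr10:80053409-80053708 overlap, so the 11 windows are not separate promoters. The GC box GGGCGG, on either strand, was in 10 of the 11 windows, at least 1 for each of the 8 genes, and in 35.7% of all 32851 windows. The core of the antioxidant response element, TGACNNNGC, was in 1 of the 11, that of Sod1, and in 12.4% of all. TATAAA was in those of Prdx3 and Sod1, and in 13.6% of all. CCAAT was in 6 of the 11, those of Txn2, Sod1, Sod2 and Gpx4, and in 37.4% of all. The palindromic NRF1 motif was in 0 of the 11 and in 0.971% of all. GC content ranged from 47.0% for Gpx1 to 68.3% for a Gpx4 window, beside a median of 52.7% over all windows.

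Some counts may share reads with other loci. Prdx5 overlaps Trmt112 by 409 bases and Sod1 overlaps Scaf4 by 650 bases, both on the opposite strand. Trmt112 had 63 and 57 reads and Scaf4 4 and 11. Gpx4-ps2, a pseudogene copy of Gpx4, was assigned 32 and 37 reads, beside 484 and 535 for Gpx4 itself, and how reads were divided between gene and copy is not stated.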

How the data were processed

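The authors deposited whole-number counts for every transcript model in each library, unnormalized. Their README files name mm10 and GENCODE M21; which aligner and filters were used is not stated there. Models carry TALON class tags in the deposited annotation files, which gave the exon coordinates.

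Reads were summed per gene symbol. CPM used all mouse reads: 688260 of 707726 in replicate 1 and 810645 of 832552 in replicate 2, the rest being spike-ins. A single read equals 1.45 and 1.23 CPM. The members and gene lists were chosen with earlier results of these data known. Named genes were all 10 members, of the wider redox list the 3 most abundant of each group, called ones and those in counts of 5 or fewer, and models with at least 5% of a member's reads plus its most abundant new model; other models of the members were named after their values were seen. With 1 library on each side, Fisher's exact test (SciPy 1.17.1) compares libraries, not animals, and no model with a spread could be fitted. The script was tested on simulated data. Known models were matched between libraries by name and new ones by intron chain. Since no molecular identifiers were counted, Wilson intervals (95%) and the limit of 3 reads for a count of 0 cover counting error only. Alternatives were TMM (edgeR 4.0.16), DESeq2 1.42.0 size factors, other minimums, pseudocounts and model classes, and leaving out a library.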

Additional observations from a re-analysis of the deposited data

Results flagged for a closer look

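Reads were also assigned to models on the strand opposite to a member, over its exons, which no comparison above used. There were 28 such reads at Sod2 (13 in replicate 1 and 15 in replicate 2), 25 at Sod1 (10 and 15) and 8 at Prdx3 (2 and 6), each above the 3 reads that a count of 0 allows. None of these models held an annotated intron of the gene. The other 7 genes had at most 3 opposite-strand reads each over both libraries. Whether the libraries keep the strand of the RNA is not given in the sources used here.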

How the results depend on the processing

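The number of members called between the libraries was 0 under all 9 alternatives (from known models alone 9 members could be tested), and 0 for usage of the leading model with at least 20 reads per library. The summed level of 3021 CPM became 3164 CPM without genomic models and 3653 CPM from known models alone, with the total reduced likewise. It stayed within 1 SD with TMM scaling (3020 CPM) and DESeq2's size factors, and was 2951 to 3090 CPM with 1 library left out. From known models alone Txnrd2 had 13.1 CPM, Sod1 73.6 CPM and Nnt 24.8 CPM, since many of their reads lie in other models. The log2 ratio of Txnrd2 changed sign, from -0.03 to 0.0013 without genomic models, 0.035 with TMM scaling and 0.081 with DESeq2's size factors, and that of Gpx4 from -0.09 to 0.016 with DESeq2's size factors; neither passed the test under any setting. The share of Nnt reads joining exon 6 to exon 7 was 95.0% to 100% with 1 library left out. Over all genes 267 were called, and 161 of 5253 with a minimum of 50 reads. The depth limits Nnt most: its 61 reads leave wide intervals. No paired analysis was possible because there is 1 group and no second group to pair with.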
